A study of Mus musculus with 2 samples.

Results

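The arterial-like cells of the homozygous liver are defined by transcripts of 3 genes that mark arterial endothelium. These are Sema3g, which encodes a secreted semaphorin, Hey1, a transcription factor induced by Notch signalling, and Gja5, which encodes connexin 40 of arterial gap junctions. A cell was included when it held at least 3 unique molecular identifiers (UMIs, each 1 captured transcript) of the 3 genes together and at least 1 UMI of Pecam1 or Cdh5, the general endothelial markers. Cells with more than 2 UMIs of Rspo3, more than 4 of Lyve1, more than 4 of Ccl2 and Cxcl10 together, or more than 2 of the cycling genes Mki67, Top2a, Cenpf and Birc5 together were left out. In the homozygous library 1102 of 13094 filtered cells met the rule, which is 8.42% (exact 95% interval 7.95 to 8.90%), among 29522 deposited barcodes in both libraries.

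The study profiled liver endothelial cells sorted as negative for DAPI and CD45 and positive for CD31. It used 1 adult Gimap5sph/+ mouse and 1 adult Gimap5sph/sph mouse, both on a C57BL/6 background, and made 1 droplet library from each with the 10x Genomics 3' v3 chemistry. The labels name no treatment, and neither animal is wild type at Gimap5. The sph allele is a missense change, so the Gimap5 transcript is still counted and its level does not check the genotype labels. Gimap5 stood at 89.7 CPM (UMIs per 1000000 UMIs of a group) in the arterial-like cells of sph/sph and at 78.6 CPM in the sph/+ cells that met the same rule. With 1 mouse per genotype there is no replicate and no test between the libraries, so a difference of genotype and one of library cannot be told apart.

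Arterial endothelium lines the vessels that carry oxygenated blood under high flow. Its identity depends on signalling by the Notch ligands Dll4, Jag1 and Jag2 through Notch1 and Notch4, with Hey1 among the targets, and on the membrane ligand ephrin B2 (Efnb2). Connexins 40 and 37 (Gja5 and Gja4) join its cells, and larger arteries lay down elastic fibres that need fibulin 5 (Fbln5) and elastin (Eln). Veins depend on the nuclear receptor Nr2f2, and liver sinusoids carry scavenger receptors such as Stab2.

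The homozygous library held 68983780 UMIs in 16386 barcodes, of which 13094 (79.9%) passed the filters of at least 500 genes, at least 1000 UMIs and at most 15% mitochondrial UMIs. The heterozygous library held 64460283 UMIs in 13136 barcodes, of which 12304 (93.7%) passed. The median arterial-like cell had 4599 UMIs, and the median reference cell 3734. The reference is the 7590 endothelial cells of the same library with no UMI of Sema3g, Hey1 or Gja5. The libraries shared 30 barcodes, of which 2 were arterial-like cells of sph/sph. Doublets were not removed from the values below, and the doublet score marked 132 of the 1102 cells (12.0%), against 13.5% of all filtered cells of that library. Levels are CPM of the summed UMIs of a group, ratios are between such levels, and all intervals are exact 95% intervals that cover counting error only. A gene was measured when it reached 20 CPM in either group, and it was counted as higher or lower when the levels differed by at least 1.5-fold after 1 CPM was added to both.

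In the GRCm38 (mm10) assembly with GENCODE M21 genes, Sema3g lies on chromosome 14 (31217860 to 31230352, plus strand), Hey1 on chromosome 3 (8663359 to 8667256, minus strand) and Gja5 on chromosome 3 (96904693 to 97077416, plus strand). Hey1 was the gene most cells were chosen on. It had at least 1 UMI in 893 of the 1102 cells (81.0%), Sema3g in 593 (53.8%) and Gja5 in 336 (30.5%). The largest single combination was Hey1 with neither of the other genes, in 441 cells (40.0%), followed by Sema3g with Hey1 in 304 (27.6%). Sema3g with Gja5 was found in 147 cells (13.3%) and all 3 genes in 121 (10.98%). The remaining combinations were small, with 41 cells for Gja5 alone, 27 for Hey1 with Gja5 and 21 for Sema3g alone. The median cell held 4 UMIs of the 3 genes and the highest 37. At the threshold itself, 405 cells (36.8%) held exactly 3 UMIs, and 799 cells that met every other limit held 2 and were left out.

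**Figure D1:**
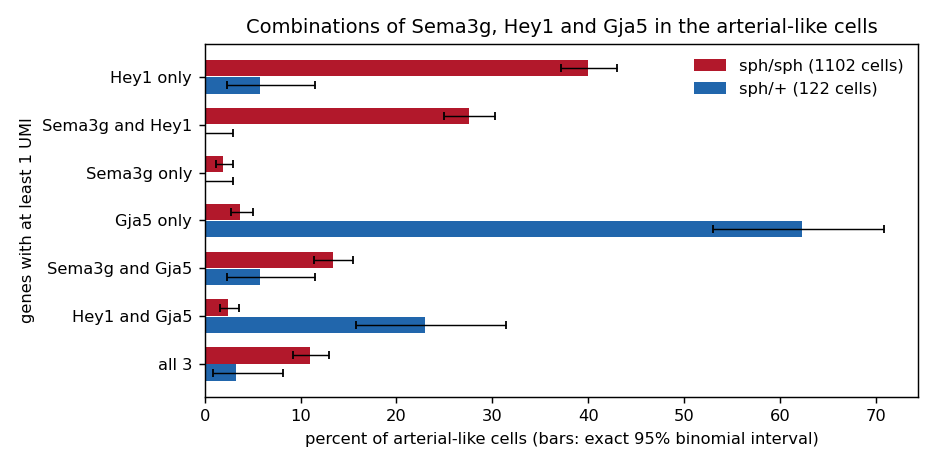
Percent of arterial-like cells (x axis) with each combination of Sema3g, Hey1 and Gja5 (y axis) in the sph/sph and sph/+ libraries, with exact 95% binomial intervals as lines. Hey1 alone is the longest bar in sph/sph (40.0%) and Gja5 alone the longest in sph/+ (62.3%).

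Hey1 was found more widely than the other defining genes. After every cell was thinned to 2000 UMIs, 20.3% of 1217 lymphatic-like cells with at least 5 Lyve1 UMIs (median 10282 UMIs before thinning) held a Hey1 UMI, and so did 14.9% of 67 barcodes with no Pecam1 or Cdh5 (median 2699 UMIs before thinning). The same share was 64.5% of 1070 arterial-like cells, a value set by the rule. For Gja5 it was 24.5% in the arterial-like cells, 0.411% in the lymphatic-like cells and 0 of 67 in the barcodes without endothelial markers, which allows a share of up to 4.48%. For Sema3g the shares were 33.8%, 0.575% and 1.49% in the same order. Unthinned, the arterial-like shares were the 81.0%, 30.5% and 53.8% given above.

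The other markers given for this cell type, which the rule did not use, were higher in the pooled arterial-like cells. Igfbp3, which encodes an insulin-like growth factor binding protein, stood at 257 CPM (244 to 271) against 15.3 CPM (14.0 to 16.6) in the reference, a 16.9-fold difference (15.2 to 18.7). Fbln5 stood at 419 CPM (402 to 436) against 22.1 CPM (20.5 to 23.7), an 18.99-fold difference (17.5 to 20.6). Unc5b, a netrin receptor, stood at 295 CPM against 106 CPM, a 2.79-fold difference (2.64 to 2.96). After thinning, Fbln5 was detected in 25.9% of 1070 arterial-like cells and 2.47% of 6918 reference cells, Igfbp3 in 17.3% and 2.39%, and Unc5b in 39.5% and 17.8%. Unthinned shares were 34.8% and 4.99% for Fbln5, 25.9% and 3.66% for Igfbp3, and 59.1% and 29.7% for Unc5b. Fbln5 and Igfbp3 were thus found in few reference cells, while Unc5b was common there too. The levels varied with the combination of defining genes. Fbln5 stood at 46.1 CPM in the 441 cells with Hey1 alone. Unc5b was under its reference level in cells with Gja5 alone (45.1 CPM) and with Sema3g and Gja5 (73.4 CPM). It was above that level in the other combinations. The lymphatic-like cells held Fbln5 in 6.90%, Igfbp3 in 3.94% and Unc5b in 11.5% after thinning.

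Most measured genes of both arterial lists were higher. Of 7052 measured genes, 5.79% were higher and 5.19% lower in the arterial-like cells than in the reference. These values come from the contrast that chose the cells and are a description. A gene under 20 CPM in one group passed the floor only through the other, where it is high, and so had to differ. This holds in every comparison below. In the arterial conduit list of 19 genes, 16 were measured and 16 of these were higher, and the median log2 ratio was 1.86, against 0.02 over all measured genes. Of the 16, 5 were at the floor only in the arterial-like cells, and the other 11, at 20 CPM or more in both groups, were all higher. In the arteriolar and arterial capillary list it was 17 of 18, with a median of 1.27, and the one gene outside was Nrp1 (log2 ratio 0.12), a VEGF and semaphorin co-receptor, picked out after its value was seen. Gja4 stood at 412 CPM against 66.2 CPM, a 6.22-fold difference. Sox17, a transcription factor of arterial specification, stood at 258 against 93.2 CPM, and Mecom, another transcription factor, at 264 against 67.3 CPM. Glul, which encodes glutamine synthetase, stood at 417 against 60.8 CPM, and the chemokine receptor Cxcr4 at 77.7 against 16.3 CPM.

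**Figure D2:**
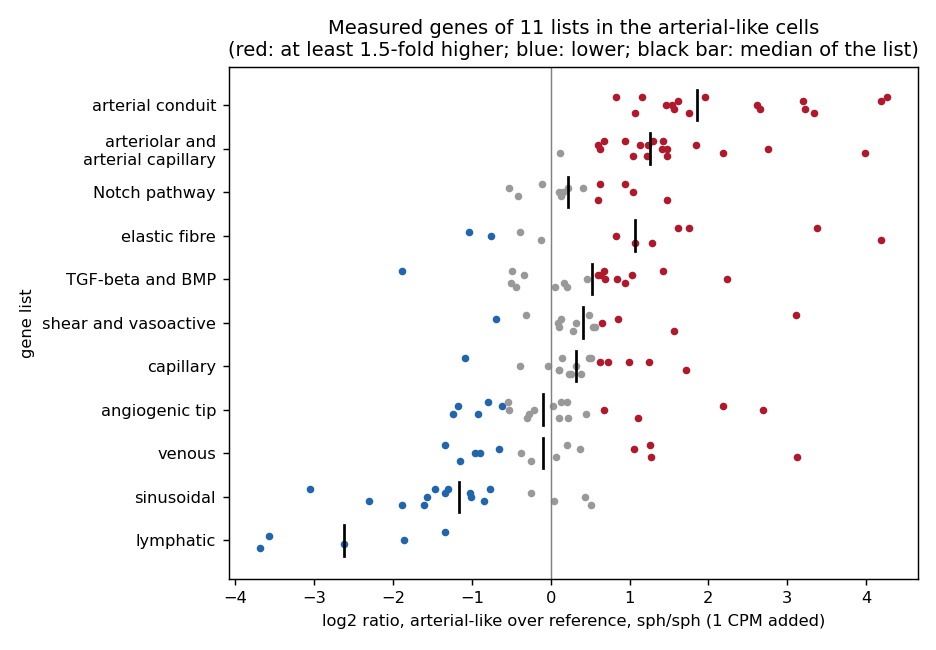
Log2 ratio of the arterial-like cells over the reference in sph/sph (x axis) for the measured genes of 11 lists (y axis), 1 point per gene, with the median of each list as a black bar. The points of the arterial conduit list all lie above 0 and those of the lymphatic list all below 0.

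Among Notch genes the ligands and receptors were higher and most of the other members were not. In the Notch pathway list 5 of 13 measured genes were higher, none was lower, and the median log2 ratio was 0.22. The 5 were the ligands Jag1 (85.4 against 30.01 CPM), Dll4 (234 against 113 CPM) and Jag2 (182 against 93.9 CPM), and the receptors Notch1 (log2 ratio 0.60) and Notch4 (197 against 128 CPM). The target Hes1 had a log2 ratio of -0.42, the glycosyltransferase Lfng of -0.52, and the DNA-binding partner Rbpj of 0.16, all within the 1.5-fold limit. Without cells of at least 3 Vwf UMIs in either group, the Jag1 log2 ratio was -0.0167. Hey2 and Heyl, the other Hey genes, stayed under the 20 CPM floor. RefSeq promoters (GRCm38.p6) were found for Sema3g, Gja5, Jag2, Unc5b and Efnb2. None of the 5 held TGGGAA, the core bound by RBPJ, on either strand in the 250 bases before the start, and 21.6% of 32851 promoters in the table held it there.

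Matrix, membrane and growth factor genes had the highest ratios. The first was Mal, a membrane raft protein, at 147 against 1.601 CPM. It was followed by Nepn, a small leucine-rich proteoglycan, at 140.3 against 2.56 CPM, and by the growth factor Nrg1 at 62.2 against 1.40 CPM. The adhesion receptor Adgrg6 stood at 88.8 against 2.998 CPM, and Vegfc, the lymphatic growth factor, at 60.8 against 2.21 CPM. In the elastic fibre list 7 of 11 measured genes were higher and 2 lower, with a median log2 ratio of 1.07. Eln stood at 130.1 against 37.9 CPM, the crosslinking enzyme Lox at 25.1 against 1.51 CPM, and Mgp, an inhibitor of calcification, at 166 against 53.8 CPM. The Wnt antagonist Sost stood at 106 against 5.65 CPM. Without cells of at least 3 Vwf UMIs, several of these directions turned, with log2 ratios of -0.42 for Nrg1 and -0.64 for Eln and a median of -0.26 for the elastic fibre list.

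TGF-beta and BMP genes shifted in parts. In that list 9 of 18 measured genes were higher and 1 lower, with a median log2 ratio of 0.52. Acvrl1, the endothelial BMP9 receptor ALK1, stood at 221 against 81.8 CPM, and the inhibitory Smad6 at 356 against 175 CPM. Tmem100, a gene downstream of ALK1, stood at 45.1 against 8.76 CPM. The gene on the other side was the stress cytokine Gdf15, at 12.5 against 48.6 CPM. In the list of shear-responsive and vasoactive genes 4 of 14 were higher and 1 lower. Ace, which encodes angiotensin-converting enzyme, stood at 101 against 10.9 CPM, endothelin 1 (Edn1) at 347 against 116 CPM, and the shear-induced factor Klf2 at 1542 against 852 CPM.

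Sinusoidal and lymphatic genes were lower. In the sinusoidal list 12 of 16 measured genes were lower and none higher, with a median log2 ratio of -1.16. Of the 12, 6 were at the floor only in the reference. Stab2 stood at 11.8 against 46.2 CPM, and the angiocrine factor Wnt2 at 5.88 against 56.3 CPM. All 5 measured lymphatic genes were lower, of which 3 were at the floor only in the reference, among them Prox1, the master factor of lymphatic identity, at 12.3 against 80.7 CPM. The rule itself limits Lyve1, Rspo3 and cycling genes. When the reference was held to the same upper limits (5120 cells), the sinusoidal list had 8 of 14 lower and the lymphatic list 1 of 3. Against that reference 4.99% of 6951 measured genes were higher and 2.89% lower. The arterial conduit list still had 16 of 16 higher, with a median of 2.70.

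Venous genes were mixed in the pooled cells. Of 14 measured venous genes 4 were higher and 5 lower, and the median log2 ratio was -0.09. Von Willebrand factor (Vwf), made by large-vessel endothelium, stood at 936 CPM against 107 CPM, and the diaphragm protein Plvap at 456 against 189 CPM. Nr2f2 stood at 102 CPM (94.1 to 111) against 162 CPM (157 to 166). Against the reference held to the upper limits, the Nr2f2 comparison turned, with 102 CPM against 84.8 CPM. These pooled values hide a division of the cells by Gja5, which is described next.

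Cells with and without Gja5 differed in most of the genes that led the pooled comparison. The 336 cells with Gja5 (median 5404.5 UMIs) were set against the 766 without (median 4348.5 UMIs). Of 7126 measured genes, 12.1% were higher and 10.5% lower in the cells with Gja5. Fbln5 stood at 1014 CPM with Gja5 and 99.7 CPM without, a 10.2-fold difference (9.09 to 11.4). Gja4 stood at 862 and 171 CPM, and Jag1 at 209.8 and 18.6 CPM. Bmx, a kinase of arterial endothelium, stood at 173 and 4.66 CPM. Nrg1 rested on 346 UMIs with Gja5 and 3 UMIs without, a ratio of 215 with an interval of 72.9 to 1047. In the arterial conduit list 16 of 17 measured genes were higher with Gja5, and 9 of 11 in the elastic fibre list.

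The cells without Gja5 carried the capillary genes. In the capillary list 16 of 17 measured genes were lower with Gja5 and none higher, with a median log2 ratio of -1.41. In the angiogenic tip list 16 of 20 were lower and 1 higher. Rgcc, a capillary marker, stood at 672 CPM without Gja5 and 110.3 CPM with it. The apelin receptor Aplnr stood at 152 and 13.8 CPM, and the costimulatory receptor Tnfrsf9 at 481 and 183 CPM. Over all cells with and without Gja5, Unc5b, Efnb2 and Jag2 were not among the genes higher with Gja5. Unc5b stood at 228 CPM with and 331 CPM without Gja5, Efnb2 at 378 and 431 CPM, and Jag2 at 132 and 208 CPM. Among cells with Hey1 but no Sema3g the order turned. There Unc5b stood at 513 and 320 CPM, Efnb2 at 684 and 418 CPM, and Jag2 at 311 and 211 CPM. The Jag2 intervals overlapped. Cells with Hey1 and Sema3g had the same order, with Unc5b at 459 and 347 CPM and overlapping intervals for the others. In cells with Sema3g but no Hey1, Unc5b stood at 73.4 and 330 CPM, the last from 21 cells. The part of Hey1 in the pooled values was not tested.

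Hepatocyte and red cell transcripts differed along the same division. Summed over 10 hepatocyte genes the level was 958 CPM without Gja5 and 408 CPM with it, against 534 CPM in the reference. All 10 measured genes were lower with Gja5. Summed over 5 erythroid genes the level was 1186 and 156 CPM, against 3123 CPM in the reference. Their part in the difference between the cells was not tested. In the pooled arterial-like cells the smooth muscle list summed to 30.3 CPM with Cnn1, Pdgfrb and Cspg4 at 0, the leukocyte list to 19.6 CPM with Cd3e, Cd79a and Nkg7 at 0, and the cholangiocyte list to 17.1 CPM with Krt7, Epcam and Spp1 at 0. Of the stellate and fibroblast markers, Col1a2, Col3a1, Lum and Pdgfra were at 0.

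The Gja5-bearing cells divided again by Hey1, and the sets with and without Hey1 differed in opposite directions for arteriolar and venous genes. Hey1 was present in 148 of the 336 cells (median 5004 UMIs) and absent from 188 (median 5801 UMIs). Of 7239 measured genes, 13.7% were higher and 13.6% lower in the cells with Hey1. This division was made after the values were seen. The cells without Hey1 were the deeper ones. By the rule they had to reach 3 UMIs through Gja5 and Sema3g alone, so the sets also differ in Gja5 level. Gja5 stood at 1105 CPM in cells with Gja5 alone and 957 CPM with Sema3g and Gja5. It stood at 537 CPM with Hey1 and Gja5 and 800 CPM with all 3 genes. The part of this imbalance in the differences below was not tested.

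Arteriolar and capillary genes were higher with Hey1. Igfbp3 stood at 882 CPM (817 to 950) with Hey1 and 203 CPM (178 to 231) without. Unc5b stood at 468 and 68.1 CPM, Jag2 at 253 and 51.9 CPM, and Efnb2 at 568 and 252 CPM. Dll4 stood at 359.8 CPM with Hey1 and 206 CPM without. Esm1, a proteoglycan of sprouting tip cells, stood at 272 and 7.66 CPM, and Cxcr4 at 128 and 5.11 CPM. In the arteriolar and arterial capillary list 11 of 18 measured genes were higher and 1, Glul, was lower. The capillary list had 14 of 15 higher, among them Rgcc at 219 and 37.4 CPM.

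Venous genes and part of the arterial conduit genes were higher without Hey1. The arterial conduit list had 6 of 17 measured genes lower with Hey1 and 4 higher. Fbln5 stood at 1291 CPM against 598 CPM with Hey1, Bmx at 248 against 61.2 CPM, and Vwf at 3225 against 1109.9 CPM. Nr2f2 stood at 358 CPM (325 to 394) against 97.0 CPM (76.4 to 121). Cst3, which encodes the protease inhibitor cystatin C and was picked out after its values were seen, stood at 9645 against 2022 CPM. The venous list had 9 of 14 lower with Hey1 and 3 higher, with a median log2 ratio of -1.31. P-selectin (Selp), which venous endothelium stores for leukocyte capture, stood at 183 CPM without Hey1 and 15.3 CPM with it. The sinusoidal list also had 9 of 12 lower with Hey1, and Gata4, a sinusoidal transcription factor, stood at 169 CPM without and 56.1 CPM with Hey1. Connexin 37 and Sox17 did not divide the sets, with Gja4 at 811 and 896 CPM and Sox17 at 332 and 333 CPM in the cells with and without Hey1.

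**Figure D3:**
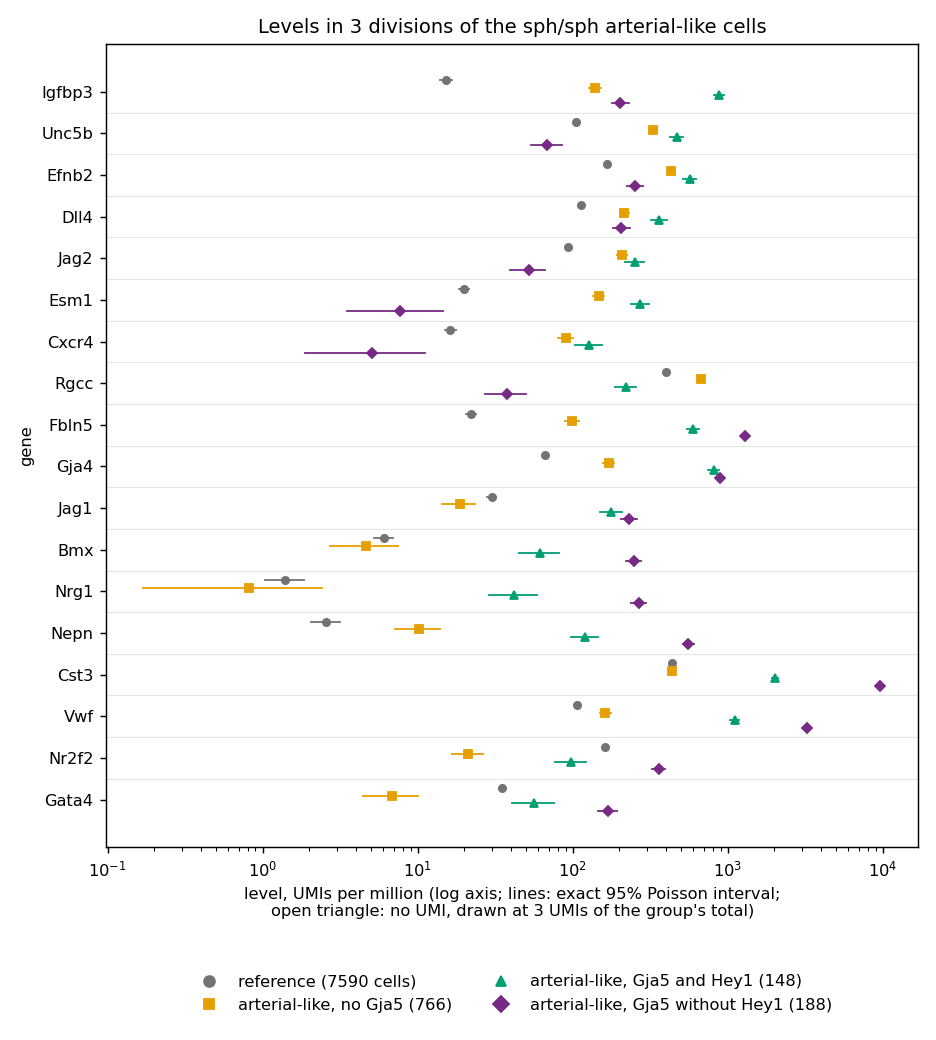
Level in CPM on a log axis (x) of 18 genes (y) in the sph/sph reference and in the arterial-like cells without Gja5, with Gja5 and Hey1, and with Gja5 but no Hey1, with exact 95% Poisson intervals as lines. Igfbp3 and Unc5b peak in the cells with Gja5 and Hey1 (882 and 468 CPM), while Fbln5, Vwf and Nr2f2 peak in the cells with Gja5 and no Hey1 (1291, 3225 and 358 CPM).

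The levels of Vwf and Rgcc in these sets can also be given as shares of the same cells, which is a second description and not separate evidence. After thinning, Vwf reached at least 3 UMIs in 80.0% of 185 cells with Gja5 and no Hey1 (73.5 to 85.5%), in 31.9% of 141 with both genes (24.3 to 40.3%), and in 4.03% of 744 without Gja5. Rgcc reached at least 3 UMIs in 0 of 185 (exact upper limit 1.97%), 4.26% and 19.9% of the same sets. Unthinned, the Vwf shares were 90.4%, 51.4% and 8.62%, and the Rgcc shares 2.13%, 12.2% and 45.7%. The doublet score marked 9.57% of the cells with Gja5 and no Hey1, 7.43% of those with both and 13.4% of those without Gja5.

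The 188 cells with Gja5 and no Hey1 were set against 350 cells of the reference chosen for at least 3 Vwf UMIs (median 4684 UMIs), a choice that fixes Vwf and Gja5 in the comparison. Their Nr2f2 level was near that of these cells, and most measured arterial conduit genes were higher. In that comparison 12.2% of 7208 measured genes were higher and 11.2% lower. Nr2f2 stood at 358 CPM against 428 CPM in the Vwf-bearing reference, and Gata4 at 169 against 179.7 CPM. Bmx stood at 248 against 18.8 CPM, Fbln5 at 1291 against 156 CPM and Gja4 at 896 against 177 CPM. The arterial conduit list had 14 of 16 measured genes higher and none lower. Genes of the Vwf-bearing reference that were near absent were Inhba, an activin subunit (0 UMIs against 318 CPM, at least 124-fold lower), and Ackr1, the venular chemokine receptor (0 UMIs against 33.5 CPM, at least 13.1-fold lower). Wnt2 stood at 11.1 against 280.2 CPM. In single cells, 124 of the 188 (66.0%, 58.7 to 72.7%) held a UMI of both Nr2f2 and Gja4, against 18 of the 148 with Gja5 and Hey1 (12.2%) and 104 of the 350 Vwf-bearing cells (29.7%). After thinning the shares were 37.8%, 8.51% and 13.5%. Gja4 and the venous factor Nr2f2 were thus found in the same cells of a set chosen on Gja5, which the arterial label does not describe. The share with both genes was not taken over the whole reference.

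The 766 cells without Gja5 had higher levels of most measured arteriolar genes and lower levels of most sinusoidal ones. Set against the 5120 endothelial cells of the reference within the upper limits, 2.78% of 6860 measured genes were higher and 2.81% lower. Of 16 measured arteriolar and arterial capillary genes, 13 were higher and none lower. Igfbp3 stood at 140.2 against 17.2 CPM, Esm1 at 147 against 24.99 CPM, Cxcr4 at 90.4 against 21.7 CPM, and Unc5b at 331 against 125 CPM. Nr2f2 stood at 21.1 against 84.8 CPM, a 4.02-fold lower level. Rgcc was within the 1.5-fold limit at 672 against 538 CPM, and Jag1 and Bmx were near the reference, at 18.6 against 19.7 CPM and 4.66 against 2.84 CPM. In the sinusoidal list 11 of 14 measured genes were lower, with the lectin Clec4g at 11.2 against 77.2 CPM.

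The arterial-like cells as a whole were also set against the 2028 reference cells with at least 3 Rgcc UMIs, a capillary group. Of 6923 measured genes, 8.03% were higher and 3.34% lower in the arterial-like cells. All 16 measured arterial conduit genes were higher there (median log2 ratio 3.52), and Fbln5 stood at 419 against 8.04 CPM. The capillary list had 5 of 16 lower and 1 higher. Against the 350 Vwf-bearing reference cells, 11% of 7169 measured genes were higher and 9.92% lower. There the capillary list had 16 of 17 higher, the venous list 8 of 14 lower and the sinusoidal list 14 of 17 lower. Lpl, which encodes lipoprotein lipase, stood at 463 against 30.5 CPM, and Rbp7, a retinol binding protein of capillaries, at 459.8 CPM against 37.1 CPM.

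Levels of several genes outside the rule differed with the number of UMIs of the 3 defining genes. Among sph/sph endothelial cells within the upper limits, Fbln5 stood at 19.8 CPM in cells with 0 defining UMIs, 88.1 CPM at 2, 147 CPM at 3 and 1122 CPM at 8 or more. Igfbp3 stood at 17.2, 61.7, 121 and 661 CPM at the same numbers, with 92.98 CPM at 4, and Gja4 at 62.4, 156, 186 and 916 CPM. Aplnr went from 285 CPM at 0 to 24.0 CPM at 8 or more, and was lower at each higher number of UMIs. Rgcc did not fall steadily, with 538 CPM at 0, 644 CPM at 1, 608 CPM at 3, 448 CPM at 5 to 7 and 169.7 CPM at 8 or more. Jag2 was highest in the middle, with 125 CPM at 0, 195.3 CPM at 5 to 7 and 129 CPM at 8 or more. Nr2f2 was lowest in the middle, with 84.8 CPM at 0, 48.6 CPM at 3 and 209.7 CPM at 8 or more. The 799 cells just outside the threshold and the 405 just inside it had close levels of Gja4 and Nr2f2, and lower Fbln5 and Igfbp3 outside. The mix of defining genes moved as well. Gja5 stood at 36.2 CPM at 3, 257 CPM at 5 to 7 and 1082 CPM at 8 or more. Hey1 stood at 492, 632 and 394 CPM at the same numbers. Median depth also moved, from 3359 UMIs per cell at 0 to 6253 at 8 or more. The part of depth and of this mix in these levels was not tested.

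**Figure D4:**
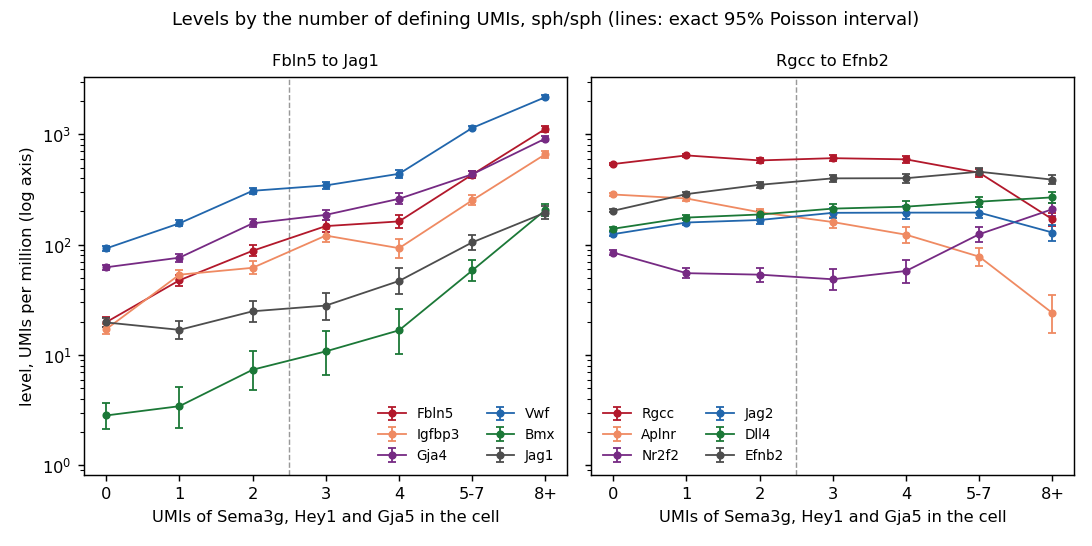
Level in CPM on a log axis (y) of 12 genes by the number of Sema3g, Hey1 and Gja5 UMIs in the cell (x), sph/sph cells within the upper limits, with exact 95% Poisson intervals; the dashed line is the threshold of 3. Fbln5 runs from 19.8 to 1122 CPM and Aplnr from 285 to 24.0 CPM between the ends. The mix of the defining genes also differs along the x axis.

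The sph/+ library held few cells of this kind, and of another make-up. The same rule found 122 of 12304 filtered cells, or 0.992% (0.824 to 1.18%). Of these, 115 (94.3%) held Gja5 and 76 (62.3%) held Gja5 alone of the 3 genes. No sph/+ cell combined Sema3g with Hey1 without Gja5, a combination seen in 304 cells of sph/sph, and 0 of 122 has an exact upper limit of 2.98%. Shares of a sorted library depend on the sort and on how cells of each type survive it, and the part of those steps was not tested.

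In sph/+ the arterial-like cells also carried the arterial conduit genes. Against the 11627 sph/+ reference cells, 12.1% of 7228 measured genes were higher and 16.8% lower, and 14 of 15 measured arterial conduit genes were higher. Fbln5 stood at 61.5 against 1.79 CPM, Gja4 at 769 against 295 CPM, Jag1 at 232 against 16.9 CPM, and Vwf at 897 against 33.9 CPM. Igfbp3 stood at 24.9 against 3.94 CPM, and Unc5b rested on 5 UMIs and stood at 6.55 against 8.84 CPM. Of 6365 genes measured in both libraries, 185 were higher in the arterial-like cells of both. These are 45.3% of all 408 higher in sph/sph and 21.2% of all 874 higher in sph/+.

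Because the make-up differed, the libraries were compared among Gja5-bearing cells alone, with 336 cells in sph/sph and 115 in sph/+ (median 5404.5 and 5819 UMIs). Of 7372 measured genes, 18.6% were higher and 18.1% lower in sph/sph. Gja5, on which both sets were chosen, stood at 893 CPM (852 to 936) in sph/sph and 643 CPM (586 to 704) in sph/+. Several other arterial genes were close. Gja4 stood at 862 and 773 CPM, a ratio of 1.11 (1.01 to 1.23). Dll4 stood at 268 CPM (245 to 291) and 304 CPM (266 to 347), Jag1 at 209.8 and 237 CPM, and Sox17 at 332 and 374 CPM, each pair with overlapping intervals. Over all arterial-like cells, of which 30.5% held Gja5 in sph/sph and 94.3% in sph/+, Gja4 stood at 412 against 769 CPM.

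Other arterial genes differed widely among the Gja5-bearing cells. Fbln5 stood at 1014 CPM in sph/sph and 63.9 CPM in sph/+, a 15.9-fold difference (11.9 to 21.7). Igfbp3 stood at 475 and 24.5 CPM, a 19.4-fold difference (12.2 to 32.9). Unc5b rested on 4 UMIs in sph/+ and stood at 228 and 5.44 CPM. Jag2 rested on 3 UMIs in sph/+, and its ratio of 32.4 had an interval of 10.97 to 158. Efnb2 stood at 378 and 207 CPM, Bmx at 173 and 24.5 CPM, and Vwf at 2379 and 926 CPM. On the other side, Vegfc stood at 136 CPM in sph/sph and 442 CPM in sph/+, Nrg1 at 177 and 511 CPM, Adgrg6 at 247 and 743 CPM, and Nr2f2 at 254 and 833 CPM. Nr2f2 also differed between the reference cells, at 162 and 699 CPM. Cyp1a1, a xenobiotic oxidase, was at 406 CPM in the arterial-like cells of sph/+ and 8.02 CPM in those of sph/sph.

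The Gja5-bearing sets still differed in make-up, since Gja5 was the sole defining gene in 41 of 336 cells of sph/sph and 76 of 115 of sph/+. Among those cells alone, Fbln5 stood at 1249.7 CPM (1107 to 1406) in sph/sph and 57.5 CPM (38.2 to 83.1) in sph/+. Igfbp3 stood at 63.2 CPM in sph/sph, far under the 475 CPM of all Gja5-bearing cells, and rested on 2 UMIs in sph/+. Unc5b stood at 45.1 CPM and Jag2 at 54.1 CPM in sph/sph, on 10 and 12 UMIs, and rested on 3 and 2 UMIs in sph/+. Vwf stood at 3578 and 825 CPM, Nr2f2 at 415 and 854 CPM, and Vegfc at 131 and 409 CPM. For these genes the libraries differed in the same direction as among all Gja5-bearing cells. Bmx did so too, at 135 and 20.5 CPM. The intervals of Efnb2 overlapped, at 212 CPM (156 to 282) in sph/sph and 175 CPM (139 to 216) in sph/+. Nrg1 stood at 289 and 503 CPM and Adgrg6 at 487 and 702 CPM. These 2 gaps were in the same direction but smaller than among all Gja5-bearing cells. In sph/sph the levels of Igfbp3, Unc5b and Jag2 were under those of all Gja5-bearing cells. Their sph/+ levels rested on too few UMIs to compare the sizes of the differences.

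**Figure D5:**
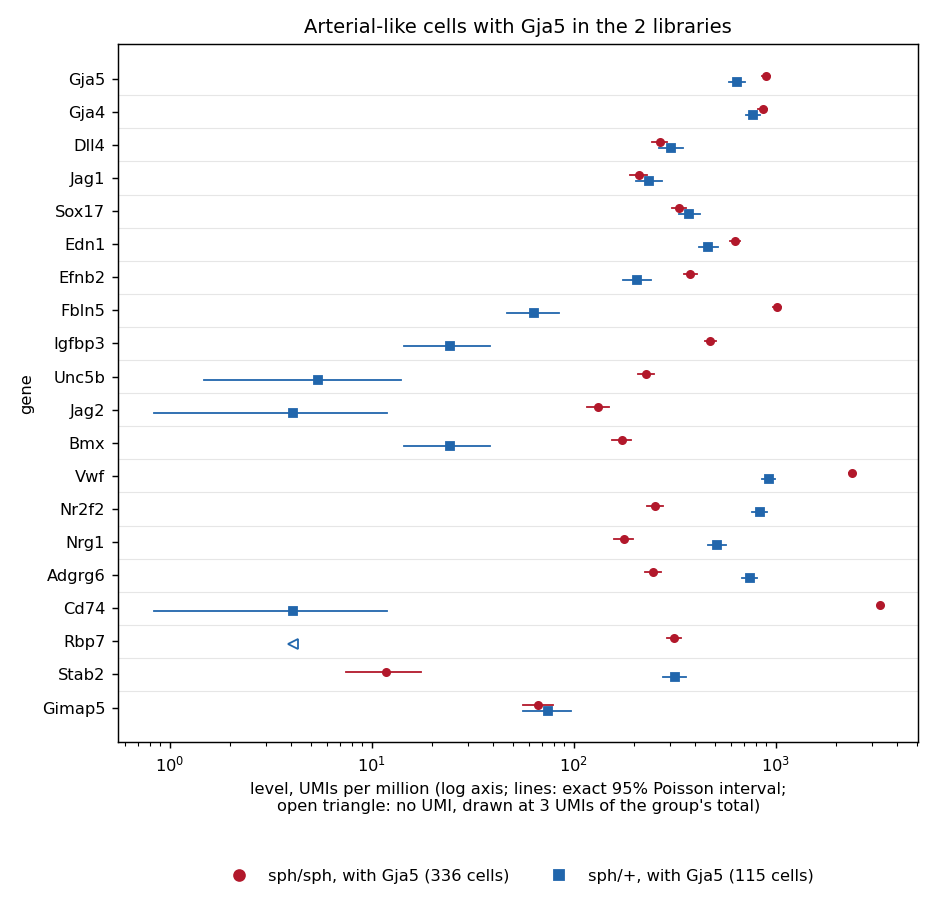
Level in CPM on a log axis (x) of 20 genes (y) in the Gja5-bearing arterial-like cells of sph/sph and sph/+, with exact 95% Poisson intervals and an open triangle for a gene with no UMI, drawn at 3 UMIs of the group. Dll4, Jag1 and Sox17 overlap, Fbln5 is higher in sph/sph (1014 and 63.9 CPM) and Nr2f2 lower (254 and 833 CPM).

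In sph/+ the division by Hey1 gave close values for the venous genes. There 32 Gja5-bearing cells held Hey1 and 83 did not. Nr2f2 stood at 928 CPM (799 to 1073) with Hey1 and 798 CPM (725 to 878) without, where sph/sph had 97.0 and 358 CPM. Vwf stood at 1015 CPM (879 to 1165) and 893 CPM (815 to 977), and Gata4 at 238 and 202 CPM. The intervals overlapped for these genes, and the higher value lay with Hey1, the reverse of the order in sph/sph. Igfbp3 rested on 7 UMIs with Hey1 and 11 without, and Unc5b on 0 and 4, too few to compare. Dll4, the Notch ligand, stood at 355 CPM (277 to 449) with Hey1 and 286 CPM (243 to 335) without. Whether the division differs between the genotypes was not tested.

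Antigen presentation separated the libraries in these cells as well. All 7 measured genes of the MHC class II list were higher in the Gja5-bearing cells of sph/sph, with a median log2 ratio of 8.88 against -0.04 over all measured genes, and all 7 were at the floor only in sph/sph. H2-Eb1 and H2-Aa, chains of the class II molecules, stood at 730.0 and 651 CPM in sph/sph with no UMI in sph/+, at least 179-fold and 159.6-fold higher. Cd74, the class II invariant chain, stood at 3285 CPM in sph/sph and rested on 3 UMIs in sph/+. The same genes differed between the reference cells, with H2-Aa at 442 CPM in sph/sph and 2.41 CPM in sph/+ and Cd74 at 2515 and 12.5 CPM. In the interferon response list 20 of 22 were higher and none lower. Rbp7 stood at 313 CPM with no UMI in sph/+, at least 76.7-fold higher. The erythroid genes summed to 156 CPM in these sph/sph cells and to 0 in the sph/+ cells, and their part was not tested. Sinusoidal genes ran the other way, with 20 of 20 measured genes lower in sph/sph. Stab2 stood at 11.7 and 317 CPM, and the Fc receptor Fcgr2b had no UMI in sph/sph against 567 CPM, at least 370.1-fold lower. The Stab2 level was 46.2 CPM in the sph/sph reference and 1338 CPM in the sph/+ reference, so the reference cells differed in the same direction. None of 6 GIMAP genes passed 1.5-fold, and Gimap5 stood at 66.9 and 74.8 CPM.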

How the data were processed

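Per the labels, 1 adult mouse of each genotype gave 1 library of sorted liver endothelial cells. The deposited values are raw counts of UMIs per gene and barcode, not normalized by the authors, in 1 matrix per sample over 31053 genes. The counts came from Cell Ranger 3.0 and the mm10 genome per the submitters' processing notes, while the deposited matrix header names software version 3.1.0. The annotation release is not given in the sources used here. Gene positions come from GENCODE M21, where 30934 identifiers matched.

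The cells and the 33 gene lists were chosen with earlier results of these data known. UMIs were summed per group and given as CPM with exact Poisson intervals (Python 3.11.15, numpy 2.4.6, scipy 1.17.1). Ratios have exact binomial intervals, and log2 ratios have 1 CPM added. No test was made, since there is 1 library per genotype, and p-values are not given. Shares have exact Clopper-Pearson intervals after thinning to 2000 UMIs, leaving out shallower cells. The 13 genes of the rule were left out of the list counts. The step was tested on simulated data with known fold changes.

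Genes were named by rule. In the comparison with the reference these were the 15 highest, the 15 lowest and the 4 largest per list, and in the others the 8 highest and 8 lowest. A further 24 genes were given whatever their values. Other genes were picked out after their values were seen. Scrublet (scanpy 1.11.5) gave each cell a doublet score. Its automatic threshold marked 0%, so the highest scores at 0.8% per 1000 barcodes were marked and left out only as an alternative. A gene whose symbol occurs more than once in the files (35 symbols) is uncertain. Alternatives were other floors, added CPM, filters, rule thresholds, depth windows, references, thinned cells and cells weighted equally.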

Additional observations from a re-analysis of the deposited data

Results flagged for a closer look

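Tnfaip3, an inhibitor of NF-kappaB signalling, was the one gene named by rule that differed by at least 1.5-fold in opposite directions between the arterial-like cells and their own reference in the 2 libraries. Of 6365 genes measured in both libraries, 16 were higher in sph/sph and lower in sph/+, and 24 the reverse. The log2 ratio of Tnfaip3 was -0.63 in sph/sph and 0.64 in sph/+, a difference of -1.27. The difference was not tested, since each library is 1 mouse, and the level in the sph/+ cells was 20.95 CPM, on 16 UMIs.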

How the results depend on the processing

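The numbers of genes depended on the floor for a measured gene. In the comparison with the reference, 408 genes were higher and 366 lower at 20 CPM, 673 and 836 at 5 CPM, and 249 and 168 at 50 CPM. With the reference held to the upper limits of the rule, 201 genes were lower, and the arterial conduit median moved from 1.86 to 2.70. With at least 5 defining UMIs that median was 2.61, and 452 cells of sph/sph and 44 of sph/+ met the rule. With at least 2, the numbers were 1901 and 204.

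Sizes of the ratios moved for many named genes, and signs turned for a few. Of 145 named genes, 112 moved without turning when the reference was held to the upper limits. With cells weighted equally 96 did, and after thinning 83. The turned signs were as follows. With the reference held to the upper limits the log2 ratios were 0.0296 for Lcn2, 0.0335 for Nts, 0.46 for Serpine2 and 0.27 for Nr2f2, and with at least 5 defining UMIs it was 0.00302 for Nr2f2. Without the cells that held at least 3 Vwf UMIs, an alternative chosen after seeing the data, the ratios were -0.42 for Nrg1, -0.0167 for Jag1, -0.64 for Eln, -0.20 for Slc27a3, -1.02 for Pltp, -0.0948 for Bmx and -0.26 for the elastic fibre median. Between the libraries, Gja5 turned to 0.47 and Gja4 to 0.16 among Gja5-bearing cells alone, also chosen after seeing the data. Those cells were chosen on Gja5, which 30.5% of the arterial-like cells held in sph/sph and 94.3% in sph/+. The Gja5 value is therefore a description, and the cause of the turned signs was not tested.

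The counts of genes in 14 comparisons and directions stayed within 1.5 times when marked doublets were left out. No paired analysis was possible because the labels give no replicate numbers and each genotype is 1 mouse. A group of 122 cells and 763719 UMIs limits the sph/+ values, where 3 UMIs are 3.93 CPM.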

Other observations

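Several gene groups not described above also differed among the divisions of the sph/sph cells. Of 13 lipid handling genes, 9 were lower and 3 higher in the cells with Gja5 than in those without, where 12.1% of all measured genes were higher and 10.5% lower. Lpl stood at 642 CPM without Gja5, 253 CPM with Gja5 and Hey1, and 48.5 CPM with Gja5 and no Hey1. Car4, a carbonic anhydrase of capillaries, stood at 54.5, 7.65 and 4.26 CPM in the same order. Of 14 basement membrane genes 9 were lower with Gja5, among them Nid2 at 173, 59.96 and 3.40 CPM, while Col8a1 stood at 0.55, 16.6 and 124 CPM. Cxcl12, the chemokine ligand of Cxcr4, stood at 1446, 1254 and 169 CPM, and Cxcr4 itself at 90.4, 128 and 5.11 CPM.

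Endothelin genes had one order across the divisions. Edn1 stood at 196 CPM without Gja5, 287 CPM with Gja5 and Hey1, and 857 CPM with Gja5 and no Hey1, and the receptor Ednrb at 176, 459 and 1437 CPM. The heparin-modifying enzyme Sulf1 stood at 14.5, 102 and 134 CPM. Apol7c was highest in the cells with both Gja5 and Hey1, at 4.38, 116 and 20.4 CPM, and so was Slc45a4, a solute carrier, at 46.0, 264 and 62.1 CPM. Olfm2 stood at 6.57, 58.7 and 2.55 CPM, the last on 3 UMIs.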
